A study of Papaver somniferum with 12 samples.

Results

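Florescence leaves of opium poppy (Papaver somniferum) were compared with seedling leaves in 6 of the 12 leaf libraries of a growth-phase series, 3 libraries of each phase, picked by the phase in their titles. Florescence is the day of first bloom and the seedling phase is the earliest sampled, soon after sprouting. Jointing (stem elongation) and bolting (first visible bud) lie between, with 3 libraries each, and served for the shared spread and for the course of each unigene. According to the methods of the study, all plants were of the original cultivar B1, grown in an experimental plot and sampled over several months of a single season, with independent samples at each time. Phase and calendar date therefore cannot be told apart, and where the labels do not name the plants, p-values measure only the spread between these samples. The study defines its leaf tissue as the top leaf of a plant, so phase and leaf position cannot be told apart either. The libraries are total leaf RNA, so fewer cells of a type and less RNA per cell cannot be told apart.

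Opium poppy is grown for its benzylisoquinoline alkaloids, a family built from tyrosine that includes morphine, codeine, papaverine and noscapine. The alkaloids collect in laticifers, the latex-bearing cells that run beside the phloem in leaf, stem and capsule, and both the phloem and the laticifers take part in their synthesis. A leaf on a young plant is devoted to photosynthesis and growth, whereas a leaf on a flowering plant also exports stored carbon and nitrogen to the reproductive organs. A leaf transcriptome is commonly led by a few very abundant transcripts of photosynthesis. The table gives identifiers of long-read sequences (unigenes) and no gene names. None of the 61856 identifiers occurs in the RefSeq gene table of assembly ASM357369v1, so which unigenes belong to these processes, and whether leaf markers are present, was not analysed here.

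Each value is an RPKM, reads normalised to unigene length and to the mapped reads of the library. The number of reads behind it is unknown. The summed RPKM was 1125140 to 1156470 in the seedling and 998634 to 1050100 in the florescence libraries. Of the 61856 unigenes, 31242 averaged 1 RPKM or more across the 12 libraries and were tested with limma on log2(RPKM + 1). Calls needed an adjusted p (Benjamini-Hochberg) under 0.05 together with a difference of 1 or more on that scale, where differences of low values are understated. All comparisons were made on the values as deposited and after each library was divided by its median-of-ratios factor, the median over unigenes of the ratio to the mean library. These factors were 0.817 to 0.886 in the seedling and 1.12 to 1.21 in the florescence libraries.

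Libraries of a phase resembled each other more than libraries of the other phase. Across the tested unigenes the Pearson correlation on log2(RPKM + 1) was 0.979 to 0.983 among the seedling libraries and 0.961 to 0.966 among the florescence libraries. Between the phases it ran from 0.902 to 0.936. Unigenes are not independent replicates, and these correlations are given as a description. Each seedling library was closest to florescence replicate 1 among the florescence libraries. The median SD over the 3 libraries of a phase was 0.13 at seedling and 0.16 at florescence as deposited, and 0.14 in both phases after scaling. The study lists a lower RNA integrity number for every florescence library than for every seedling library, and its part in the differences was not tested.

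More unigenes were called higher than lower as deposited, and more lower than higher after scaling. As deposited 2947 unigenes were called (9.43% of those tested), of which 2009 (6.43%) were higher at florescence and 938 (3%) were lower. With median-of-ratios scaling 2414 were called (7.73%), of which 651 (2.08%) were higher and 1763 (5.64%) were lower. Scaling moved the whole distribution, whose median difference was 0.33 as deposited and -0.01 after scaling on log2(RPKM + 1). As deposited 76.8% of the tested unigenes had a positive difference, against 48.9% after scaling. Median-of-ratios scaling centres the typical ratio between libraries, so the scaled median and the near-even signs follow largely from the method.

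**Figure D1:**
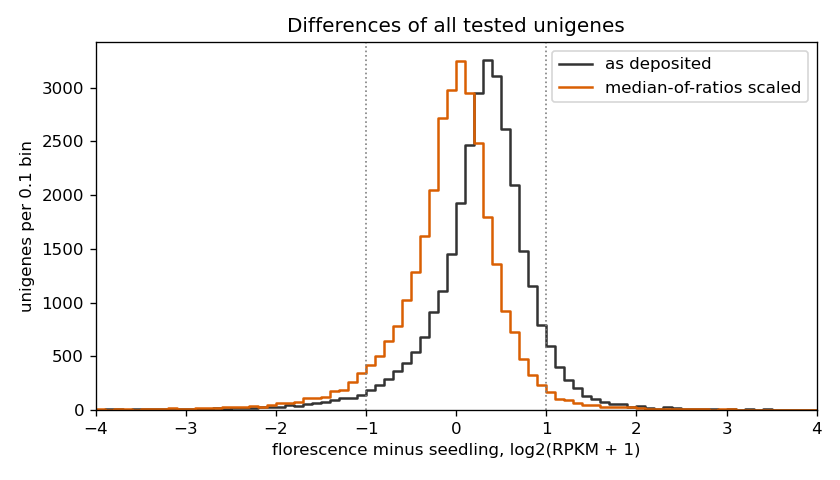
Number of tested unigenes (y axis, per bin of 0.1) by their florescence minus seedling difference on log2(RPKM + 1) (x axis), as deposited and median-of-ratios scaled. Dotted lines mark the differences of -1 and 1 needed for a call. The x axis is limited to -4 to 4, and the scaled curve has its centre at a median of -0.01 and the deposited curve at 0.33.

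No called unigene changed its direction with the scaling, which follows from the factors and is given as a description. They lower the florescence minus seedling differences, each by less than the required 1, so a called unigene kept its sign by arithmetic. The same 651 higher (2.08% of those tested) and 937 lower unigenes (3%) were called under both scalings, 1588 in all (5.08%), and 0 were called in opposite directions. These were 32.4% of the higher and 99.9% of the lower calls as deposited, and 100% of the higher and 53.1% of the lower calls after scaling. The 1358 unigenes called higher as deposited alone had positive differences after scaling too, from 0.56 to 1.69 with a median of 0.76, and 1189 of them were still under the adjusted p of 0.05 in limma. The 826 unigenes called lower after scaling alone had negative differences as deposited, from -1.87 to -0.55 with a median of -0.77, and 749 were under the adjusted p of 0.05. The 1 unigene called lower as deposited alone had a scaled difference of -1.56. These unigenes thus differed between scalings mostly in whether the difference reached 1.

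The unigenes called under both scalings were chosen on these 6 libraries, so that little overlap between the phases follows from the choice and is given as a description. As deposited the 3 florescence libraries lay above all 3 seedling libraries for 650 of the 651 higher unigenes and below them for 930 of the 937 lower ones. After scaling these numbers were 647 and 936. Of all tested unigenes, called or not, 62.9% had no overlap between the phases as deposited, with 51.8% higher and 11.1% lower at florescence. After scaling the share was 49.3%, with 22.6% higher and 26.7% lower.

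The levels of the called unigenes are also a description, since a set chosen for a fall lies high at seedling and a set chosen for a rise lies low. The 651 higher unigenes went from a median of 3.02 RPKM at seedling to 13.4 RPKM at florescence, a median difference of 1.68 as deposited and 1.33 scaled on the log2(RPKM + 1) scale. The 937 lower unigenes went from a median of 14.4 to 3.07 RPKM, a median difference of -1.53 as deposited and -1.88 scaled. Differences of at least 2 on this scale were reached by 199 higher (30.6%) and 265 lower unigenes (28.3%) as deposited, and by 112 (17.2%) and 393 (41.9%) after scaling. The largest differences among called unigenes were 6.19 and -6.52 as deposited.

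The direction of the differences varied with the abundance class of a unigene. Unigenes were classed by their mean over all 12 libraries, of which 3 are florescence libraries. A unigene that fell at florescence thus tends to be classed by its higher level, and one that rose by its lower level. The trend over the classes follows in part from this and is given as a description, and classes by florescence values were not tested. In the lowest class, 1 to 5 RPKM, 263 of 16195 were called higher under both scalings (1.62%) and 272 lower (1.68%). From 5 to 20 RPKM 239 of 9414 were higher (2.54%) and 282 lower (2.996%). From 20 to 100 RPKM 115 of 4229 were higher (2.72%) and 238 lower (5.63%). In the 1298 unigenes from 100 to 1000 RPKM, 32 were higher (2.47%) and 121 lower (9.32%). Of the 106 unigenes at 1000 RPKM or more, 2 were higher (1.89%) and 24 lower (22.6%). In these classes the share of higher calls stayed between 1.62% and 2.72%, while the share of lower calls grew with each class.

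A similar trend was seen in all unigenes of a class, called or not, except that as deposited the lowest class lay below the next. As deposited the median difference was 0.34, 0.39, 0.25, -0.05 and -0.58 from the lowest to the highest class on the log2(RPKM + 1) scale. After scaling it was 0.05, -0.01, -0.19, -0.50 and -1.03. Of the 106 most abundant unigenes, 85 had a negative difference as deposited and 97 after scaling. After scaling the phases were fully apart for 97 of these 106, with 91 lower and 6 higher at florescence. The median standard error of a difference as deposited was similar in all classes, from 0.14 to 0.17. The classes were also built from the jointing and bolting libraries alone, a choice made after seeing the data. These libraries do not enter the difference, but the typical called unigene was nearer to seedling in them. The limit given above for classes by the 12-library mean therefore holds for these classes too. With these classes the lowest held 776 unigenes under 1 RPKM at jointing and bolting, of which 78 were higher (10.1%) and 23 lower (2.96%) under both scalings, outside the pattern of the other classes. From 1 RPKM upward the lower calls made up 1.43%, 3.08%, 5.69% and 10.7% of a class, and the higher calls 1.80%, 1.998%, 1.98% and 1.75%. The highest class again held 106 unigenes, of which 28 were lower (26.4%) and 0 higher under both scalings in limma (also 0 higher with an unadjusted p under 0.05 under both), with median differences of -0.68 as deposited and -1.13 scaled.

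**Figure D2:**
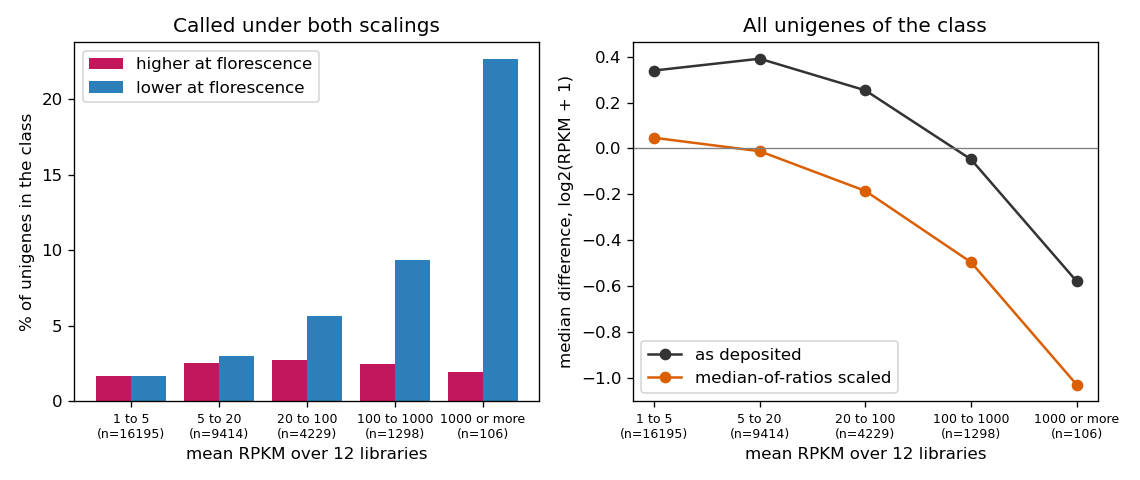
Unigenes by abundance class (x axis, mean RPKM over the 12 libraries, with the number of unigenes). Left, the percentage of each class called higher or lower at florescence under both scalings; right, the median florescence minus seedling difference on log2(RPKM + 1). Lower calls grow from 1.68% to 22.6% of a class, while higher calls stay between 1.62% and 2.72%.

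A small number of unigenes carried the loss of signal. Over all unigenes measured, 14227 had a lower mean RPKM at florescence and together lost 294957 RPKM, and 41469 had a higher mean and together gained 187115 RPKM. The 10 largest losses made up 34.6% of the summed loss, and 30 unigenes made up 50% of it. The gain was spread more widely, with 18.2% in the 10 largest and 517 unigenes for 50%. All 10 unigenes with the largest losses were called lower after scaling, but 3 as deposited. Of the 10 largest gains, 6 were called higher under either scaling.

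The share of the signal held by the called unigenes moved with these levels, as a description of sets that were chosen on this difference. The 651 higher unigenes held 0.765%, 0.726% and 0.683% of the summed RPKM in the seedling libraries and 3.78%, 3.86% and 4.31% in the florescence libraries. The jointing libraries, at 0.939% to 1.11%, and the bolting libraries, at 1.03% to 1.16%, were close to seedling. The 937 lower unigenes held 18.5%, 18.1% and 18.8% at seedling and 7.90%, 6.87% and 6.04% at florescence. They held 15.02% to 18.3% at jointing and 19.3% to 19.9% at bolting. Without the most abundant of them, PB.734.2622, the lower unigenes still held 11.6% to 12.1% at seedling and 3.98% to 5.47% at florescence.

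**Figure D3:**
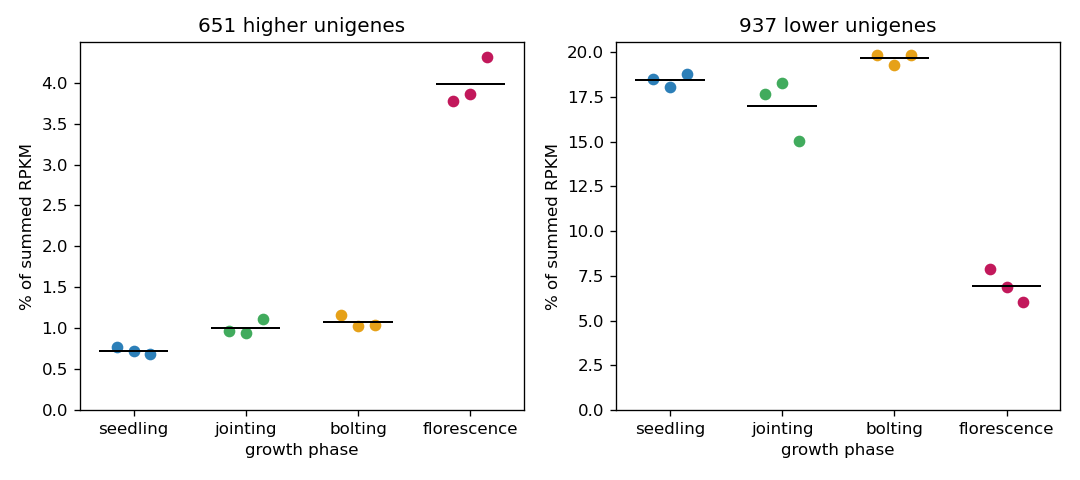
Percentage of a library's summed RPKM (y axis) held by the 651 higher and the 937 lower unigenes called under both scalings, by growth phase (x axis). Points are libraries and bars are phase means (n = 3); the y axes of the panels differ. Jointing and bolting libraries stay near seedling in both panels, from 0.939% to 1.16% for the higher and from 15.02% to 19.9% for the lower unigenes.

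Whole-library measures separated the phases without overlap as deposited. The summed share of the 10 highest unigenes was 18.3% ± 0.603 at seedling and 12.9% ± 1.04 at florescence (SD, n = 3 each), a difference of -5.36 percentage points (exact permutation test, two-sided, p = 0.1, or 0.114 when adjusted over 8 such tests). The smallest p that 3 libraries against 3 can give is 0.1, so none of these tests could pass 0.05. The number of unigenes above 0.1 RPKM was higher by 1152 at florescence as deposited, but lower by 264 after scaling (-264, from 45947 ± 301 to 45683 ± 254, SD, n = 3; exact permutation test, two-sided, p = 0.5). The most abundant unigenes were largely the same in both phases: 6 of the 10 highest by mean RPKM were shared, 15 of the highest 20, 81 of the highest 100 and 822 of the highest 1000.

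The unigenes named here are the 2 with the largest gain and the 2 with the largest loss in mean RPKM among the 1577 called under both scalings whose libraries did not overlap under either, 647 higher and 930 lower. Their functions are not known from the sources used here.

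PB.1437.20 had the largest gain. It stood at 336, 334 and 312 RPKM in the seedling libraries and at 2889, 3103 and 3157 RPKM in the florescence libraries. The phases were far apart and each was tight, with means of 328 ± 13.6 and 3049 ± 142 RPKM (SD, n = 3), a ratio of 9.31. On log2(RPKM + 1) it rose by 3.21 ± 0.24 (SE) as deposited (limma, adjusted p = 7.91e-06) and 2.76 ± 0.29 scaled (limma, adjusted p = 8.91e-05). At jointing it was at 204, 255 and 150 RPKM, below every seedling library, and at bolting at 1051, 545 and 554 RPKM, above every seedling library.

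PB.57706.22 was at 727, 871 and 715 RPKM at seedling and at 3013, 2850 and 3349 RPKM at florescence. Its mean went from 771 ± 87.0 to 3071 ± 255 RPKM (SD, n = 3), a ratio of 3.98. The difference was 1.99 ± 0.19 (SE) as deposited (limma, adjusted p = 3.54e-05) and 1.54 ± 0.24 scaled (limma, adjusted p = 0.000784). As deposited its bolting libraries, at 748, 796 and 745 RPKM, lay within the range of the seedling libraries, and its jointing libraries, at 735, 726 and 418 RPKM, reached no higher. Values above the seedling range were thus seen in the florescence libraries alone.

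PB.734.2622 was the most abundant unigene of the seedling libraries, with 71432, 74318 and 80775 RPKM there and 25204, 26692 and 20481 RPKM at florescence. Its mean fell from 75508 ± 4784 to 24126 ± 3243 RPKM (SD, n = 3), so that it was 3.13 times as high at seedling. This loss of 51382 RPKM was 17.4% of the summed loss over all unigenes. The difference was -1.65 ± 0.20 (SE) as deposited (limma, adjusted p = 0.000127) and -2.10 ± 0.30 scaled (limma, adjusted p = 0.000474). The scaled call was lost when unigenes with low means were not filtered out (limma, adjusted p = 0.241). The call as deposited was then only just kept (limma, adjusted p = 0.0478), and the cause was not tested. At bolting it stood at 84549 to 87987 RPKM as deposited, above every seedling library, but after scaling its bolting libraries, at 93174 to 105944, overlapped with its seedling libraries, at 80583 to 96965.

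PB.55497.18 was at 6625, 6431 and 5955 RPKM at seedling and at 4488, 2753 and 2005 RPKM at florescence. Its florescence libraries were spread widely, with a mean of 3082 ± 1274 RPKM against 6337 ± 345 (SD, n = 3). The difference was -1.12 ± 0.26 (SE) as deposited (limma, adjusted p = 0.00494) and -1.57 ± 0.31 scaled (limma, adjusted p = 0.00345). As deposited it was no longer called without florescence replicate 3, where the difference was -0.85. It was higher at bolting, with 8259 to 9645 RPKM, than in any seedling library, and this held after scaling, with 9118 to 11613 against 7149 to 7871.

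PB.225.272 was chosen after its values were seen, because it had the largest gain of the whole table and was not called. It stood at 17919, 21272 and 14512 RPKM at seedling and at 37663, 32553 and 33000 RPKM at florescence, and the phases did not overlap. It ranked 4 at seedling and 1 at florescence by mean RPKM, where PB.734.2622 ranked 2. The difference of 0.96 ± 0.49 (SE) as deposited was under the required 1 and did not pass the test (limma, adjusted p = 0.126), nor did 0.51 ± 0.56 scaled (limma, adjusted p = 0.531). The shared spread includes its jointing libraries, which ran from 1684 to 7915 RPKM, and its bolting libraries, from 5766 to 14802 RPKM.

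**Figure D4:**
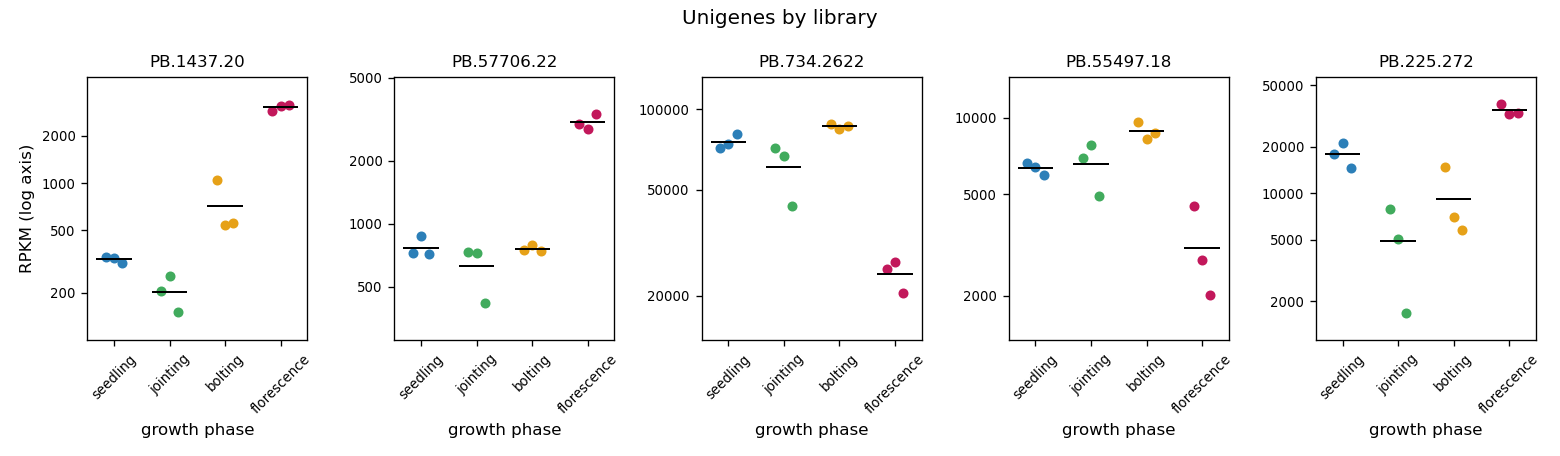
RPKM (y axis, log scale) of 5 unigenes in all 12 libraries by growth phase (x axis). Points are libraries and bars are phase means (n = 3). PB.1437.20, PB.57706.22 and PB.225.272 have their highest values at florescence and PB.734.2622 and PB.55497.18 their lowest, and the values are as deposited.

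Most of the difference was not yet present at jointing and bolting. For each jointing and bolting library the position of a unigene was taken as its distance from the seedling mean, divided by the distance between the seedling and the florescence mean, on log2(RPKM + 1). A position of 0 is the seedling mean and 1 the florescence mean. These libraries had no part in choosing the called unigenes other than the filter on the mean and the shared spread and scaling. Over the 651 higher unigenes the median position as deposited was 0.192, 0.193 and 0.231 in the jointing libraries and 0.209, 0.179 and 0.188 in the bolting libraries. Over the 937 lower unigenes it was -0.112, -0.123 and 0.0194 at jointing and 0.370, 0.127 and 0.186 at bolting. No median went past 0.370, so the typical called unigene was nearer to seedling in all 6 libraries.

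The order of jointing and bolting changed with the scaling for the higher unigenes only. For the higher unigenes the bolting minus jointing position was -0.0129 as deposited (exact permutation test, two-sided, p = 0.5) and 0.170 after scaling (exact permutation test, p = 0.1, or 0.2 when adjusted over 4 tests). For the lower unigenes it was 0.300 as deposited (exact permutation test, p = 0.1, adjusted p = 0.2) and 0.0679 after scaling (exact permutation test, p = 0.5). Again 0.1 was the smallest p possible.

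Single unigenes followed different courses behind these medians. As deposited 259 of the 651 higher unigenes (39.8%) had a mean position under 0.25 at both jointing and bolting, and 17 (2.61%) were already at 0.75 or more at both. Among the 937 lower unigenes 414 (44.2%) were under 0.25 at both, and 77 (8.22%) were at 0.75 or more at both. After scaling 287 higher (44.1%) and 358 lower unigenes (38.2%) were under 0.25 at both. At 0.75 or more at both there were then 19 higher (2.92%) and 76 lower unigenes (8.11%). As deposited the jointing mean of 503 lower unigenes (53.7%) lay beyond seedling, away from florescence, against 161 higher unigenes (24.7%). After scaling these became 378 (40.3%) and 284 (43.6%). The 3 florescence libraries lay beyond all 9 other libraries for 539 of the higher unigenes (82.8%) and 612 of the lower ones (65.3%) as deposited, and for 505 (77.6%) and 631 (67.3%) after scaling. Over all tested unigenes, called or not, the florescence libraries lay above all 9 others for 17.9% and below them for 5.23% as deposited, and for 10.5% and 11.004% after scaling. Called unigenes were chosen for a separation from seedling, so the larger shares among them are not a result about the members.

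**Figure D5:**
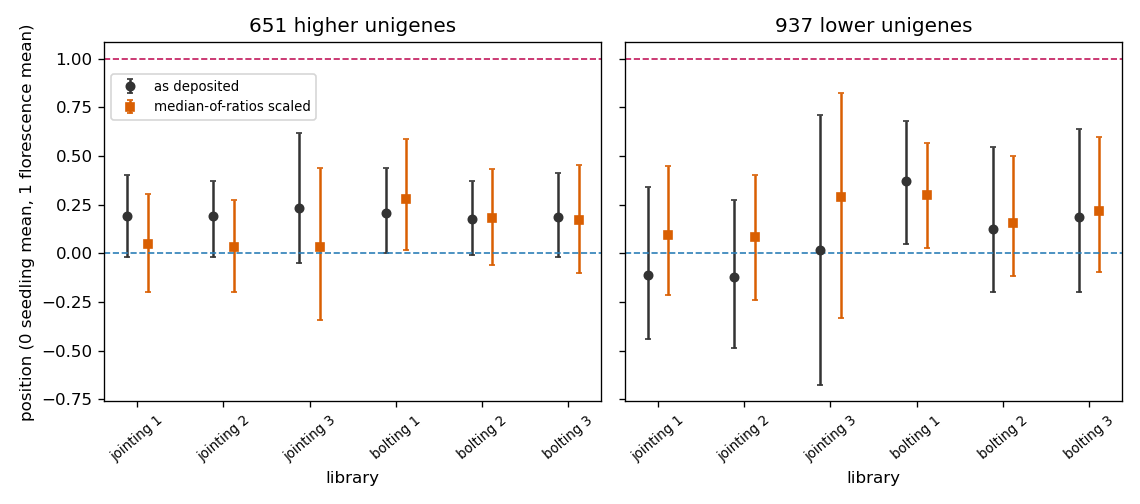
Position of the jointing and bolting libraries (x axis) between the seedling mean (0, lower dashed line) and the florescence mean (1, upper dashed line), for the higher and the lower unigenes. Points are medians over unigenes and bars run from the first to the last quartile, as deposited and median-of-ratios scaled. Medians as deposited run from -0.123 to 0.370.

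Few unigenes switched between absent and present. In all 61856 unigenes, 12 had at least 1 RPKM in all 3 florescence and at most 0.1 RPKM in all 3 seedling libraries, and 54 had the opposite pattern. These are counts with no test. Of the 12 gained unigenes 8 passed the filter on the mean, and of the 54 lost unigenes 50 did. The gained unigenes had a median of 4.07, 4.32 and 8.19 RPKM in the florescence libraries, and 0 of them reached 1 RPKM in all libraries of jointing or of bolting. The lost unigenes had a median of 3.37, 1.82 and 2.16 RPKM in the seedling libraries and were higher at jointing, at 5.46, 5.96 and 12.8 RPKM. At bolting their median was 0.255, 1.90 and 1.19 RPKM. At least 1 RPKM in all 3 libraries was kept by 45 of the 54 lost unigenes at jointing and by 7 at bolting. The loss of these unigenes was thus mostly seen after jointing. The counts rested partly on single libraries: the gained unigenes numbered 20 without seedling replicate 2, 22 without florescence replicate 2 and 21 without florescence replicate 3, and the lost unigenes numbered 102 without florescence replicate 1. With exactly 0 RPKM demanded in the lower phase, 5 gained and 19 lost unigenes were left.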

How the data were processed

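Total RNA was extracted with TRIzol and sequenced with paired ends on a HiSeq X instrument. The authors mapped cleaned reads with HISAT2 (version 2.05 in the submitters' processing notes) to unigenes made from pooled PacBio long reads, and estimated expression with RSEM. The deposited unit is RPKM (the methods name FPKM), with no further normalization between libraries stated. RPKM corrects depth, not composition. RSEM divides reads of near-identical sequences by estimation, so unigenes with close relatives are uncertain. Each first number of an identifier occurs once among the 61856, so isoforms of a locus could not be compared.

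All 12 value columns were matched to samples by library code. The 12 libraries entered 1 fit of log2(RPKM + 1) in limma (version 3.58.1, R 4.3.3), which let the variance follow the mean. Scaling used the 43618 unigenes above 0 in all 12 libraries. The study's own test needs counts, so it was not used on RPKM. On simulated data with 31242 unigenes in the florescence against seedling comparison, 89 of 100 unigenes changed by 1.5 and 96 of 100 changed by 2 were recovered, with 3 false calls. The changed unigenes were drawn only from those with a mean log2(RPKM + 1) above 3, so recovery at lower levels is not known. The simulation used normal noise, held all other unigenes equal between phases and did not cover the scaled calls.

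The replicate numbers were checked for pairing: deviations from the phase means correlated at 0.38, 0.24 and 0.29 in the 3 same-numbered pairs of libraries and below 0 in all other pairs. Deviations within a phase sum to 0, so the negative values follow in part from the positive ones and are not separate evidence. Any pairing is read from these data, not from the labels, and was not tested. A fit with the replicate number as a block was an alternative, as were other pseudocounts, filters, thresholds and scalings and the omission of each seedling or florescence library. Jointing and bolting libraries were left out in turn for the positions only, not for the calls. The unigenes named are the 2 with the largest gain and the 2 with the largest loss in mean RPKM among those called with the same sign under both scalings, with no overlap of libraries under either. The comparison, its rules and its lists were chosen with earlier results of these data known.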

Additional observations from a re-analysis of the deposited data

How the results depend on the processing

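The balance of higher to lower calls depended on the scaling. Both the balance and the total number depended on how low values and small differences were treated. Calls as deposited, scaled and under both scalings numbered 5052, 3542 and 2446 with pseudocount 0.1, and 1111, 1225 and 774 with pseudocount 5. As deposited 3776 were higher and 1276 lower with pseudocount 0.1, against 612 and 499 with pseudocount 5. Under both scalings the split was 1171 higher and 1275 lower with pseudocount 0.1, and 275 and 499 with pseudocount 5. A minimum mean of 10 RPKM gave 1243, 1288 and 762, and dropping the demanded difference of 1 gave 15301, 9631 and 6598. No filter on the mean gave 2983, 2417 and 1579, and an adjusted p under 0.01 gave 2678, 2115 and 1358. Without the difference of 1 the split under both scalings turned to 4135 higher and 2463 lower. As deposited, quantile normalization gave 782 higher and 1373 lower, equal totals 2975 and 813, and equal totals without the 100 highest unigenes (chosen after seeing the data) 1467 and 1081.

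With a seedling or florescence library left out the counts ran from 2686 to 3333 as deposited, from 2199 to 2472 scaled and from 1504 to 1663 under both. The replicate block in the fit on 6 libraries gave 3038, 2514 and 1655 calls, against 2971, 2453 and 1615 in the fit on 6 libraries without it, and changed no call of the named unigenes. PB.55497.18 as deposited was also not called with equal totals (-0.97) and quantile normalization (-0.71).

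The difference in unigenes above 0.1 RPKM reversed to -264 after scaling, and lay between 1007 and 1356 when any seedling or florescence library was left out. The difference in the share of the 10 highest ran from -5.89 to -4.85. Bolting minus jointing position of the higher unigenes reversed to 0.170 after scaling, and lay between -0.0213 and 4.81e-05 when any library was left out, the last without jointing replicate 3. For the lower unigenes it ran from 0.229 to 0.350. On-off unigenes ran from 15 to 22 (on at florescence) and from 56 to 102 (on at seedling), and were 5 and 19 with exactly 0 RPKM demanded. The unknown number of reads limits values near 0.1 RPKM, which cannot be given a counting error.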
